A study of Mus musculus with 15 samples.

Results

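A set of 7 genes (*Bik*, *Hrk*, *Bmf*, *Aim2*, *Rassf6*, *Trp53inp1* and *Eaf2*) was followed in A20 lymphoma cells and in clones of these cells with a disrupted *Foxp1* gene. They are the mouse orthologs of genes described as repressed by FOXP1 in human B cells, or close relatives of those genes in function. The set holds 7 of the 41388 genes counted. Of these, 5 passed the filter on low counts and were among the 13904 genes tested, while *Bik* and *Hrk* did not pass it.

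A20 is a B-cell lymphoma line of the BALB/c mouse strain. The study sequenced mRNA from the unedited A20 parental line and from 4 clones made by CRISPR/Cas9 editing of *Foxp1*, with 3 libraries per line and 15 in all. In E6.1 and E6.2 the edit lay in exon 6, and in E7.1 and E7.2 it lay in exon 7. Each is 1 clone grown from a single sorted cell, and per the study's methods each carries a frameshift that brings in a premature stop codon. No other treatment or allele was named, and the 3 libraries of a line came from separate passages of the same cells. The p values below therefore measure the spread between passages, and a difference between a clone and the parental line cannot be told apart from other differences between single cells of the line. All comparisons with the parental line share its 3 libraries. Where 4 values are given together, they follow the order of E6.1, then E6.2, then E7.1, then E7.2.

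FOXP1 is a forkhead transcription factor that acts mostly as a repressor, binds DNA at sites with a TGTTTAC core, and supports the survival of mature B cells and B-cell lymphomas. *Bik*, *Hrk* and *Bmf* encode BH3-only proteins, which bind BCL2-like survival proteins and so free the pore-forming proteins BAX and BAK. AIM2 senses DNA in the cytosol and assembles an inflammasome, RASSF6 is a RAS-association domain protein that binds the Hippo kinases, TP53INP1 is induced by p53 and promotes p53-dependent death and autophagy, and EAF2 partners the ELL elongation factors of RNA polymerase II. Each comparison with parental cells asks whether the level of these genes was higher where *Foxp1* had been disrupted.

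Promoters were read because a repressor of this family binds DNA directly. The RefSeq promoter table (GRCm38.p6, 250 bases before to 50 after each start site) held 9 entries for 5 of the 7 genes. The motif TGTTTAC, read on both strands, occurred in 3.65% of the 32851 promoters of the table, and the wider motif TGTTTNC, which includes it, in 20.5%, or in at least 1 promoter of 22.8% of the 27025 genes. It matched 6 times, in 4 of the 9 entries and 3 of the 5 genes, and the matched stretches are shown because they hold the only copies of the motif in these windows. The capitals mark the match, which is written as it stands on the gene's strand.
*Rassf6*, chr5:90640732-90640777, minus strand: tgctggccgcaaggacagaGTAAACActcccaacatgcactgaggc
*Bmf*, chr2:118549771-118549817, minus strand: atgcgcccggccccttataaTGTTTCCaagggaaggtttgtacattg
*Bmf*, chr2:118549646-118549692, minus strand: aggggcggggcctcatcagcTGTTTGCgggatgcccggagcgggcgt
*Eaf2*, chr16:36874890-36874936, minus strand: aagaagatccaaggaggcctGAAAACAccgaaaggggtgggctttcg
*Eaf2*, chr16:36874851-36874897, minus strand: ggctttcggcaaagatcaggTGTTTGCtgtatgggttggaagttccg
*Eaf2*, chr16:36808670-36808716, minus strand: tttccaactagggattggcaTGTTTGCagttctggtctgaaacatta
*Rassf6* alone held the full TGTTTAC core, on the opposite strand, with its first base at position -231 from the start site. In *Bmf* both matches, at -111 and 15, lay in 1 of its 3 promoters. In *Eaf2* they lay at -90 and -51 in the promoter near the 5′ end of the gene, and at 10 in an internal promoter. No match lay in the single promoter listed for *Aim2* or for *Hrk*. Their start sites, at 173420604 and 118169764, lay inside the genes as counted (from 173350879 and 118164648). The 5′ ends of these 2 genes as counted were therefore not read. A match is a description of the sequence, and none of these data show binding.

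Total counts ranged from 26328054 to 39181530 read pairs per library, with a median of 35586010. Levels are given as normalized CPM, the counts scaled to a common library size with TMM factors. A count of 3, taken as the floor, corresponded to between 0.0750 and 0.118 CPM, which covers counting error only. The summed level of 8 B-cell markers lay between 3423 and 5070 CPM in every library, against 0.211 to 2.67 CPM for 7 T-cell, 0.571 to 8.80 CPM for 7 myeloid, 0.160 to 3.19 CPM for 4 erythroid and 0 to 0.674 CPM for 5 fibroblast markers. Replicate 3 of E6.2 and replicate 3 of E7.2 stood apart from the other libraries of their lines, with 16.8% and 10.3% of the tested genes more than 2-fold from the mean of the line's other libraries. In the other libraries this share was between 0.575% and 9.86%. The highest of these was replicate 1 of E6.2, close to replicate 3 of E7.2, so the line between libraries that stood apart and the rest is narrow. *Xbp1*, a transcription factor of plasma cells, was at 366 CPM in the first and 611 CPM in the second of these libraries, and between 142 and 221 CPM in the rest. *Prdm1* and *Irf4*, which also mark plasma cells, were highest in replicate 3 of E7.2, at 21.0 and 77.6 CPM, but stood at 1.98 and 9.86 CPM in replicate 3 of E6.2. The markers *Jchain* and *Sdc1* went the other way. In replicate 3 of E7.2 they were the lowest of the line, at 1656 and 2.34 CPM. In replicate 3 of E6.2 they were the highest of the line, at 1156 and 1.89 CPM. All 5 plasma-cell markers listed were detected in every line, and their sum was 1591 to 2158 CPM in parental cells, 1613 to 2094 in E6.1, 1025 to 1537 in E6.2, 1674 to 1817 in E7.1 and 2008 to 2367 CPM in E7.2. Both libraries were kept, and values without them are given where they change the call of a member or of a pathway gene named here.

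*Foxp1* itself was read first (GRCm38 chromosome 6, from 98925338 to 99522721). It was at 102, 166 and 147 CPM in the parental libraries, between 99.5 and 109 CPM in the 6 libraries of the E6 clones, between 41.7 and 64.3 CPM in E7.1 and between 37.1 and 52.3 CPM in E7.2. The E6 libraries overlapped the parental ones and the E7 libraries lay below all others. By the quasi-likelihood test of edgeR, with Benjamini-Hochberg adjustment over all tested genes, E7.1 and E7.2 differed from parental cells by a log2 fold change of -1.29 and -1.69 (adjusted p = 0.00688 and 0.00116). The call in E7.1 was lost without replicate 2 of the parental line (-1.13, adjusted p = 0.0533), and that in E7.2 when only the 6 libraries compared were fitted (-1.67, adjusted p = 0.0538). In E6.1 and E6.2 the value was -0.41 and -0.39, and neither was called (adjusted p = 0.765 and 0.417 from the same edgeR test). An edit that introduces a stop codon need not lower the transcript, so this is a check of the label in the E7 clones only.

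No member was called higher in any clone at an adjusted p under 0.05 in this test, while 0.0575%, 0.165%, 0.396% and 0.0863% of all tested genes were. In either direction, 0 of the 5 tested members were called in E6.1 (0.324% of all tested genes), 0 in E6.2 (1.17%) and 0 in E7.2 (0.295%). The count was 1 of 5 in E7.1, namely *Trp53inp1*, which was lower, against 1.22% of all tested genes in either direction and 0.820% in the lower one. At an unadjusted p under 0.05, the same edgeR test gave 1 member in each of 3 clones. *Aim2* was higher in E6.1, where 2.87% of all genes were, *Rassf6* was lower in E6.2, where 6.79% were, and *Trp53inp1* was lower in E7.1, where 10.0% were. The median log2 fold change of the 5 members was 0.30, -0.22, 0.16 and 0.31 in the 4 clones, and that of all tested genes was -0.0008, 0.06, -0.02 and 0.0043. With *Bik* and *Hrk* left untested, these medians cover 5 of the 7 genes. Of the 20 intervals that these 5 genes gave in the 4 clones, 17 held 0, and 15 had an upper bound under 1 on the log2 scale, that is, under a 2-fold rise. The 5 that reached a 2-fold rise belonged to *Bmf* and *Eaf2*, so that the spread between libraries leaves room for a rise of that size in these genes.

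**Figure D1:**
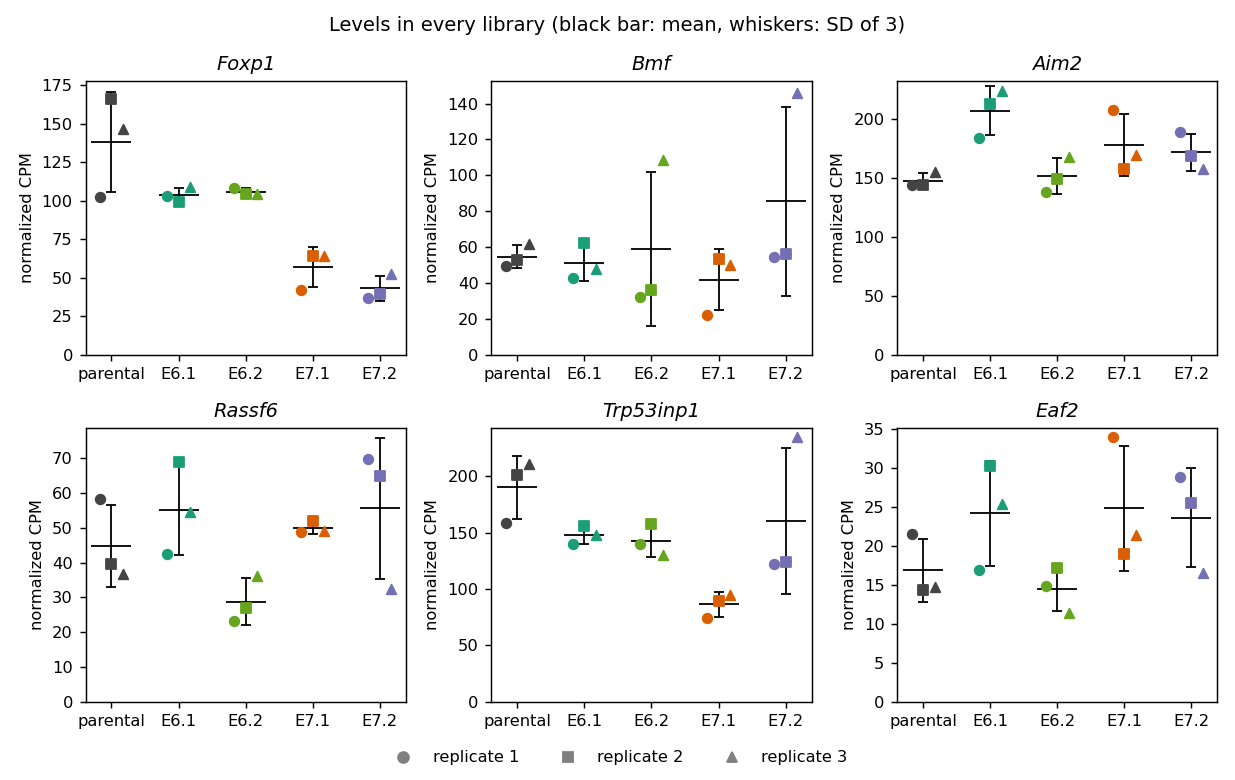
Normalized CPM (vertical axis, from 0) of *Foxp1* and the 5 tested genes in each of the 15 libraries, by line, with 1 symbol per replicate, a black bar at the mean and whiskers of 1 SD over 3 libraries. *Foxp1* is lowest in the E7 clones, *Trp53inp1* is lowest in E7.1 at 74.1 to 95.1 CPM, and the 2 highest *Bmf* values, 108 and 146 CPM, come from replicate 3 of clone E6.2 and replicate 3 of clone E7.2.

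Before each gene is taken in turn, their levels in parental cells can be set side by side per kilobase of exon. *Aim2* was highest at 42.2 CPM per kb, followed by *Trp53inp1* at 29.4, *Rassf6* at 22.9, *Bmf* at 10.4 and *Eaf2* at 3.85 CPM per kb. The median of the tested genes was 5.90 CPM per kb, so that *Eaf2* lay below the middle of the expressed genes and the other 4 above it.

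*Bik* (chromosome 15, from 83526862 to 83544635), a BH3-only gene, gave no usable level in any line. It held 1 count in replicate 2 of E6.1 and 2 counts in replicate 1 of E6.2, and 0 counts in the other 13 libraries, parental cells included. All of these lie at or under the floor, so no fold change is given and a difference between lines was not detectable at this depth.

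*Hrk* (chromosome 5, from 118164648 to 118189478), which encodes another BH3-only protein, was also close to the floor. The parental libraries held 3, 0 and 3 counts, those of E6.1 2, 1 and 2, those of E7.1 2 each, and those of E7.2 0, 3 and 1. In E6.2 the counts were 15, 6 and 3, or 0.590, 0.181 and 0.0902 CPM. The first 2 of these lay above every library of the other lines, and the third did not. *Hrk* enters a test only when the filter is left out, and there its difference between E6.2 and parental cells was not called (adjusted p = 0.574 in edgeR, unadjusted p = 0.0562). It was not called in any of the other comparisons either, the smallest adjusted p being 0.215.

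**Figure D2:**
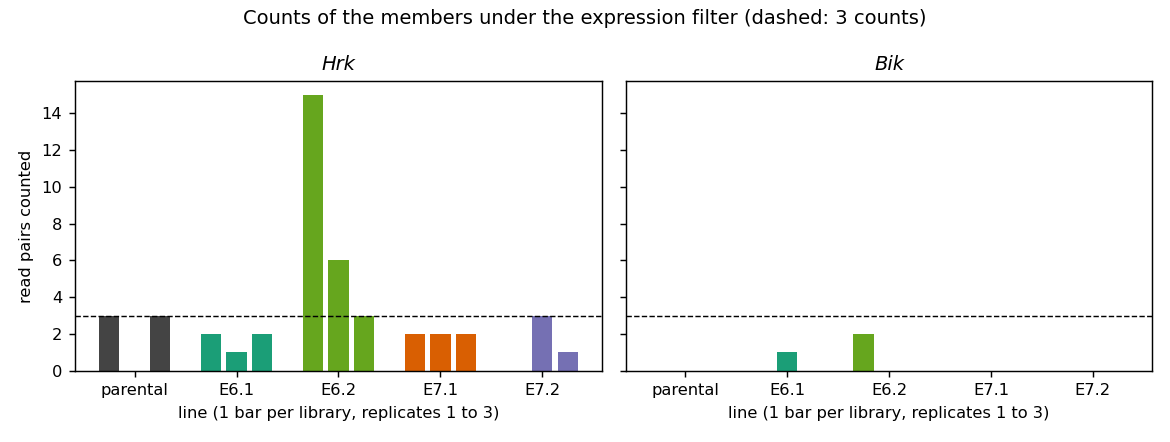
Read pairs counted (vertical axis) on *Hrk* and *Bik* in each library, with 1 bar per library grouped by line and a dashed line at the floor of 3 counts. Only replicates 1 and 2 of E6.2 rise above the floor, with 15 and 6 counts of *Hrk*.

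*Bmf* (chromosome 2, from 118528757 to 118549687), the third BH3-only gene and the only one of the 3 with a measurable level, spread widely within lines, with an SD of 42.9 CPM in E6.2 and 52.5 CPM in E7.2, while the means of the 5 lines lay between 41.8 and 85.4 CPM. Its level was 49.6, 52.5 and 61.8 CPM in parental cells and 43.0, 62.3 and 47.6 CPM in E6.1. It was 32.4, 36.1 and 108 CPM in E6.2, 22.2, 53.4 and 49.9 CPM in E7.1 and 54.3, 55.9 and 146 CPM in E7.2. The highest values came from the same pair of libraries that stood apart across the tested genes: in replicate 3 of E6.2 *Bmf* was 3.17 times, and in replicate 3 of E7.2 2.65 times, the mean of the other libraries of the line. The lowest value, in replicate 1 of E7.1, was 0.430 of the mean of the others of E7.1. The log2 fold change was -0.10, 0.11, -0.39 and 0.64 in the 4 clones, and the intervals were wide, from -0.36 to 1.65 in E7.2. None was called by the edgeR test, with adjusted p between 0.543 and 0.995. Without the replicate 3 libraries of both E6.2 and E7.2 the value turned to -0.68 in E6.2 (adjusted p = 0.218 in the same edgeR test) and fell to 0.05 in E7.2 (adjusted p = 0.948). The part that plasma-cell genes or the departure of these libraries had in the *Bmf* values was not tested.

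**Figure D3:**
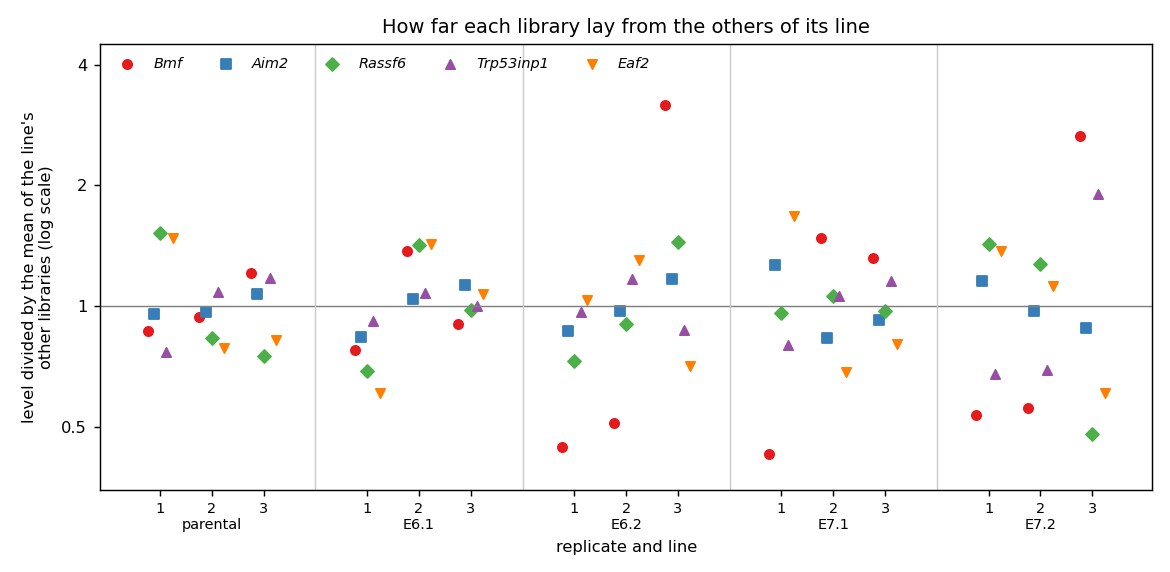
Level of each tested gene in a library divided by the mean of the other libraries of the same line (vertical axis, log scale), for the 3 replicates of each line along the horizontal axis. *Bmf* reaches 3.17 in replicate 3 of E6.2 and 2.65 in replicate 3 of E7.2, where *Trp53inp1* reaches 1.91 and *Rassf6* falls to 0.481.

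*Aim2* (chromosome 1, from 173350879 to 173466040), the cytosolic DNA sensor, had the narrowest intervals of the 5 and was the one whose estimates lay above 0 in all 4 clones, without passing the adjusted threshold in any. Parental libraries were at 144, 144 and 155 CPM, and the E6.1 libraries at 184, 213 and 224 CPM lay above them all. The E6.2 libraries, at 138, 149 and 168 CPM, overlapped the parental ones. Those of E7.1 at 208, 158 and 169 CPM and of E7.2 at 189, 169 and 158 CPM lay above the parental range, E7.1 and E7.2 reaching down to 158 CPM against a parental maximum of 155 CPM. For comparison, 11.3% of all tested genes had libraries wholly above the parental ones in E6.1, and 16.4% and 10.8% had them in the respective E7 clones, and an exact permutation test of 3 against 3 libraries cannot go below p = 0.1, which *Aim2* had in each. The log2 fold change was 0.49 in E6.1 (95% interval 0.20 to 0.78), 0.27 in E7.1 (-0.02 to 0.56), 0.22 in E7.2 (-0.07 to 0.51) and 0.04 in E6.2 (-0.25 to 0.33). Adjusted p was 0.274, 0.285, 0.480 and 0.914 in these clones by the edgeR test. DESeq2's Wald test on the same genes called *Aim2* in E6.1 (adjusted p = 0.0406) with a like fold change of 0.48, as it called 1.11% of all tested genes, and the range of adjusted p over all alternatives of that comparison was 0.0406 to 1.00. The difference of *Aim2* between E6.2 and E6.1 was not called (-0.45, adjusted p = 0.165 in edgeR) but was without the replicate 3 libraries of both E6.2 and E7.2 (-0.54, adjusted p = 0.0443), as were 3.39% of the genes tested in that fit.

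*Rassf6* (chromosome 5, from 90603076 to 90640487), the Hippo-linked gene whose promoter holds the full forkhead core, had its lowest mean level in E6.2, at 28.8 ± 6.77 CPM (SD, n = 3), but no comparison of E6.2 passed the adjusted threshold. It was at 58.2, 39.5 and 36.7 CPM in parental cells, 42.5, 68.8 and 54.4 CPM in E6.1, 48.7, 51.9 and 49.2 CPM in E7.1 and 69.7, 64.9 and 32.4 CPM in E7.2. The E6.2 libraries were at 23.1, 26.9 and 36.3 CPM, all below the parental range, as were the libraries of 8.61% of all tested genes in that clone, and below all libraries of E6.1 and E7.1, while replicate 3 of E7.2 lay within their range. Against parental cells the log2 fold change was -0.64 in E6.2 (95% interval -1.22 to -0.05, adjusted p = 0.348), 0.30 in E6.1 (adjusted p = 0.955), and 0.16 and 0.31 in the E7 clones (adjusted p = 0.791 and 0.608, all from edgeR). Although their sizes were not tested against each other, the estimated difference of E6.2 from each other clone was larger than that from parental cells. It was -0.94 against E6.1, 0.79 for E7.1 against E6.2 and 0.95 for E7.2 against E6.2, with adjusted p of 0.147, 0.0610 and 0.0909 in the edgeR test. All 3 were called by DESeq2's Wald test, by edgeR's likelihood ratio test and without the filter. DESeq2 called 3.22%, 24.1% and 6.96% of all tested genes in these 3 comparisons, the likelihood ratio test 2.85%, 20.9% and 5.49%, and the fit without the filter 1.07%, 8.77% and 2.06%. Without replicate 3 of E7.2 they were -0.94, 0.81 and 1.26 and all called (adjusted p = 0.0388, 0.0188 and 0.00944 in edgeR), as were 2.09%, 21.4% and 5.91% of the genes tested. Without replicate 3 of E6.2 the differences of E7.1 and E7.2 from E6.2 were called, at 1.00 and 1.16 (adjusted p = 0.0303 and 0.0267 in edgeR). In that fit 25.7% and 15.7% of the genes tested were called. Without replicate 1 of the parental line the difference of E7.1 from E6.2 was called, at 0.81 (adjusted p = 0.0485 in edgeR), as were 17.8% of the genes tested. With both replicate 3 libraries left out, all 3 were called at -1.15, 1.02 and 1.47 (adjusted p = 0.0130, 0.00482 and 0.00322 in edgeR), as were 3.39%, 34.9% and 17% of the genes tested. Replicate 3 of E7.2 held the lowest *Rassf6* level of that clone, 0.481 of the mean of its other libraries.

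*Trp53inp1* (chromosome 4, from 11156431 to 11174379), a p53-induced gene, gave the only call against parental cells, and its direction was down. Parental libraries were at 158, 201 and 211 CPM, with a mean of 190 ± 28 CPM (SD, n = 3), and the E7.1 libraries at 74.1, 89.8 and 95.1 CPM, with a mean of 86.3 ± 10.9 CPM (SD, n = 3). The E6.1 libraries, at 140, 156 and 148 CPM, and the E6.2 libraries, at 140, 158 and 130 CPM, lay between these sets, below the lowest parental library, E6.2 by a margin that rounding hides. For comparison, 11.2% and 8.61% of all tested genes had libraries wholly below the parental ones in the E6 clones, and 15.6% had them in E7.1. E7.2 was at 122, 124 and 235 CPM and overlapped the parental range through replicate 3 alone. The log2 fold change in E7.1 was -1.14 (SE 0.22, 95% interval -1.61 to -0.67, adjusted p = 0.0293 by the edgeR test), that is, a level of 0.454 of the parental one. In a bulk library, fewer cells with the transcript and less transcript per cell cannot be told apart. The call was kept in the 7 fits with another method, filter or choice of libraries and in 8 of the 15 fits that left out 1 library. It was lost without replicate 2 or 3 of the parental line, replicate 1 or 3 of E6.1, or any 1 library of E7.1, where the log2 fold change was between -1.21 and -1.04 and the adjusted p of the edgeR test between 0.0516 and 0.194. The log2 fold change was -0.36 and -0.42 in the E6 clones and -0.25 in E7.2, and none was called (adjusted p = 0.859, 0.429 and 0.613 in the same edgeR test).

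*Eaf2* (chromosome 16, from 36792884 to 36875003), the ELL-associated factor, was the least abundant of the 5 and spread widely between libraries. It was at 21.5, 14.3 and 14.7 CPM in parental cells, 16.9, 30.3 and 25.3 CPM in E6.1 and 14.9, 17.2 and 11.4 CPM in E6.2. In E7.1 it was at 34.0, 19.0 and 21.4 CPM and in E7.2 at 28.8, 25.5 and 16.5 CPM. Every clone overlapped the parental range. The log2 fold change was 0.52, -0.22, 0.56 and 0.49 in the 4 clones, with upper 95% bounds of 1.13, 0.40, 1.17 and 1.10, and none was called (adjusted p between 0.293 and 0.839 by the edgeR test).

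The mean of the 4 clones was also set against parental cells, to ask for a shift in their average. Its test uses the spread between libraries, so a single clone can carry the mean, and a call would not show that the clones share a shift. *Trp53inp1*, for example, was at -0.36, -0.42, -1.14 and -0.25 in the 4 clones. Of the 5 members 0 were called, against 0.503% of all tested genes. *Aim2* was higher by a log2 fold change of 0.25 (95% interval 0.02 to 0.49, adjusted p = 0.466) and *Trp53inp1* lower, at -0.54 (-0.91 to -0.17, adjusted p = 0.278), by edgeR, both with an unadjusted p under 0.05, as had 3.78% of all tested genes in the higher and 6.12% in the lower direction. *Eaf2* stood at 0.34, *Bmf* at 0.07 and *Rassf6* at 0.03. Whether *Trp53inp1* was called depended on 1 library, while its value moved little. Without replicate 3 of E7.2, its highest library, it was -0.62 and called (adjusted p = 0.0167 in the same edgeR test). Without replicate 3 of E6.2 as well it was -0.61 and called (adjusted p = 0.0110 in edgeR). In these fits 0.607% and 1.16% of the genes tested were called.

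**Figure D4:**
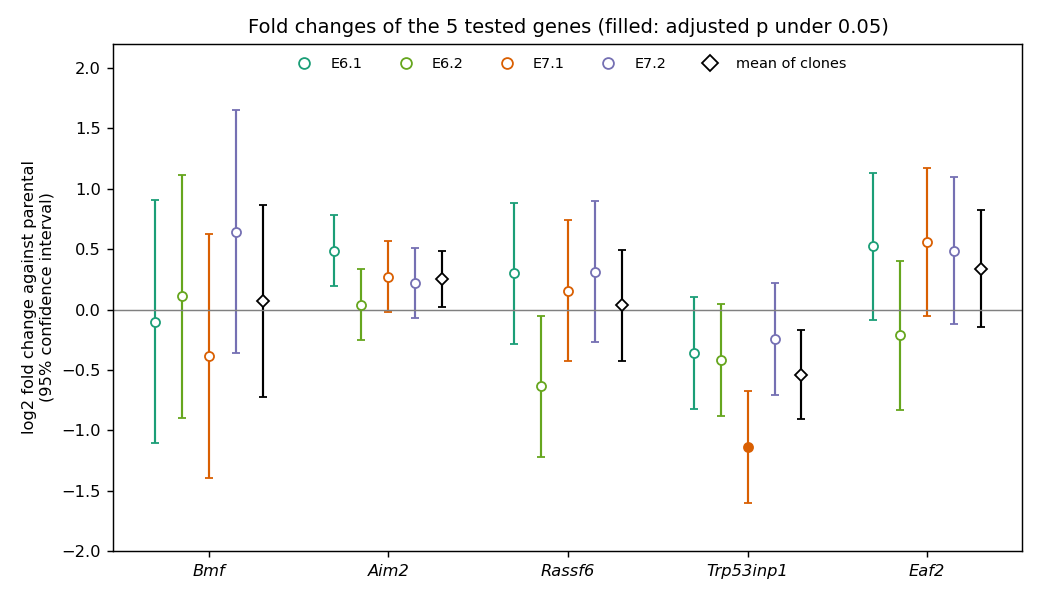
Log2 fold change against parental cells (vertical axis, with 95% confidence interval) of the 5 tested genes in each clone and in the mean of the 4 clones, filled where the adjusted p was under 0.05. The single filled point is *Trp53inp1* in E7.1 at -1.14, and the *Bmf* intervals are the widest.

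The order of the lines was not the same for any 2 of the 5 genes. From high to low it was E7.1, E6.1, E7.2, parental, E6.2 for *Eaf2*, and E7.2, E6.1, E7.1, parental, E6.2 for *Rassf6*. For *Aim2* it was E6.1, E7.1, E7.2, E6.2, parental, for *Trp53inp1* parental, E7.2, E6.1, E6.2, E7.1, and for *Bmf* E7.2, E6.2, parental, E6.1, E7.1. Of the neighbours in these orders, the only pair that passed the edgeR test was E6.2 and E7.1 for *Trp53inp1*, which differed by -0.72 on the log2 scale for E7.1 against E6.2 (95% interval -1.19 to -0.26, adjusted p = 0.0391). In that comparison 16.9% of all tested genes were called and 8.65% were lower. It gave the only call of a member among the 6 pairs of clones, and the other pairs called 1.24% (E6.2 against E6.1), 3.24% (E7.1 against E6.1), 0.352% (E7.2 against E6.1), 2.24% (E7.2 against E6.2) and 0.590% (E7.2 against E7.1) of all tested genes. The call was lost in 10 of the 15 fits that left out 1 library, namely any library of E6.1 or E7.1, replicate 2 or 3 of the parental line, or replicate 1 or 2 of E6.2, with values between -0.79 and -0.62 and adjusted p between 0.0515 and 0.150 in edgeR. The difference of *Trp53inp1* between E7.2 and E7.1, 0.89, was not called (adjusted p = 0.109 in the edgeR test), but it was without the filter, by DESeq2's Wald test and by the likelihood ratio test (adjusted p = 0.0454, 0.0118 and 0.0143). These fits called 0.585%, 2.06% and 1.72% of the genes tested in that comparison. The difference of *Trp53inp1* between E7.1 and E6.1, -0.78, was not called either (adjusted p = 0.0636 in edgeR). It was called by the same 3 alternatives (adjusted p = 0.0463, 0.0178 and 0.0206), with the replicate block (adjusted p = 0.0494), and without replicate 3 of E6.2, replicate 3 of E7.2 or both (-0.76, adjusted p = 0.0464, 0.0143 and 0.00604). In the order given, these fits called 2.41%, 10.9%, 7.65%, 2.99%, 9.1%, 5.52% and 17.8% of the genes tested. *Eaf2*, 0.77 higher in E7.1 than in E6.2, was not called either (adjusted p = 0.0770), but was without replicate 3 of E7.2 (0.79, adjusted p = 0.0463, both from edgeR) and by DESeq2's Wald test (adjusted p = 0.0491). There 21.4% and 24.1% of the genes tested were called.

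The E7 clones, where the *Foxp1* transcript was lower, were compared with the E6 clones. *Foxp1* differed by -1.09 on the log2 scale (adjusted p = 0.000609 in edgeR). None of the 5 members was called, against 12.1% of all tested genes. *Rassf6* differed by 0.40 (adjusted p = 0.175), *Eaf2* by 0.37 (0.232), *Bmf* by 0.12 (0.835), *Aim2* by -0.02 (0.919) and *Trp53inp1* by -0.30 (0.197), all from that edgeR test. Without replicate 3 of E7.2 alone, *Rassf6* at 0.56 (adjusted p = 0.0289) and *Trp53inp1* at -0.47 (adjusted p = 0.0113) were called, in opposite directions, where 17.7% of the genes tested were, and both were also called without the third replicates of both E6.2 and E7.2, where 33.1% were.

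The other genes of the pathways around the members were read from 9 lists, which held 118 genes other than *Foxp1* and the members, 88 of them tested. Over these 88 genes, the 4 clones gave 0, 3, 1 and 0 calls, or 0%, 3.41%, 1.14% and 0%, and all 4 calls were lower. Among the 5 other BH3-only genes, *Pmaip1*, a p53 target that binds MCL1, was lower in E7.1 (41.4, 46.0 and 41 CPM against 60.7, 79.9 and 81.4 CPM in parental cells). Its log2 fold change was -0.79 with an adjusted p of 0.0400 in edgeR. It was called in 5 of the 15 fits without 1 library, namely without replicate 1 of the parental line, a library of E6.2 or replicate 3 of E7.2, and in the others it was between -0.84 and -0.71 (adjusted p between 0.0615 and 0.229). In E6.2 *Pmaip1* was at -0.66 and not called (adjusted p = 0.0904 in edgeR). There it was called by DESeq2's Wald test and the likelihood ratio test (adjusted p = 0.0163 and 0.0278). Without replicate 2 of E6.2 it was called too (-0.90, adjusted p = 0.0121 in edgeR). *Bcl2l11* and *Bbc3*, which encode the broad binders BIM and PUMA, were not called in any clone, at -0.37 and -0.79 in E7.1 and 0.37 and 0.58 in E6.2. *Bid*, singled out after its values were seen, was above 0 in E7.1, at 0.58, and not called (adjusted p = 0.0619 in edgeR). It was called higher there by DESeq2's Wald test and the likelihood ratio test. The same held without replicate 1 of the parental line, and without replicate 3 of E6.2, replicate 3 of E7.2 or both. The median log2 fold change of the BH3-only list was -0.08, -0.04, -0.37 and 0.32 in the 4 clones. In the replicate 3 libraries that stood apart, *Bbc3* was at 34.5 CPM in E6.2 and 31.3 CPM in E7.2, its highest values, and these libraries also held the highest values of *Bmf*.

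Of the genes that oppose or carry out the action of BH3-only proteins, none was called in the main edgeR test. In the list of BCL2-like survival genes 0 of 6 tested members were called in each clone, with medians of -0.10, -0.32, -0.47 and -0.64. *Bcl2l1*, which encodes BCL-XL, was at 0.61 in E6.2 (adjusted p = 0.323) and -0.67 in E7.1 (adjusted p = 0.150), and *Mcl1* between -0.02 and 0.35, all from edgeR. *Bax* was at 0.36, 0.17, 0.46 and 0.44 (adjusted p between 0.0977 and 0.613 in the edgeR test), and was called in E7.1 at 0.48 without replicate 3 of E6.2 (adjusted p = 0.0480), at 0.49 without that library and replicate 3 of E7.2 (adjusted p = 0.0246) and by DESeq2's Wald test (adjusted p = 0.0328). *Bcl2l1* in E7.1 was called without replicate 1 of the parental line (-0.92, adjusted p = 0.0181 in edgeR). Singled out after their values were seen, *Bcl2* was at -1.54 in E7.1 and *Bcl2a1d* at -3.33 in E6.2. Neither was called (adjusted p = 0.0893 and 0.0776 in edgeR). Both were called by DESeq2's Wald test, by the likelihood ratio test and without the replicate 3 libraries of both E6.2 and E7.2. *Bak1*, singled out likewise, was called higher in E7.1 in those fits. Some further fits called each of these genes. The 15 caspase and apoptosome genes gave 0 calls in any clone.

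The 10 tested genes of the *Aim2* inflammasome and PYHIN list gave both of their calls in E6.2. *Ifi213*, a PYHIN gene of the cluster that includes *Aim2*, was at 17, 10.4 and 8.57 CPM in E6.2 and at 55.5, 30.0 and 30.2 CPM in parental cells, a log2 fold change of -1.69 (adjusted p = 0.0153 in edgeR). The call was lost without replicate 1 of the parental line or replicate 2 or 3 of E6.2 (-1.60 to -1.31, adjusted p between 0.0530 and 0.116) and in the fit of the 6 libraries alone (adjusted p = 0.190). *Nlrc4*, which encodes a protein of another inflammasome, held 12, 8 and 3 counts in E6.2 and 298, 216 and 171 counts in parental cells, a log2 fold change of -4.65 (adjusted p = 4.8e-05 in edgeR), and was called in each of the 15 fits without 1 library. *Pycard*, the adaptor through which AIM2 recruits caspase-1, lay between 1.33 and 5.77 CPM in all 15 libraries and was not called, except in E7.1 without replicate 1 of the parental line (1.29, adjusted p = 0.0359 in edgeR). *Casp1* was at -0.60 in E6.2 and not called (adjusted p = 0.0645 in the edgeR test), but it was by DESeq2's Wald test and the likelihood ratio test (adjusted p = 0.00599 and 0.0181). It was called too without replicate 2 of E6.2 (-0.71, adjusted p = 0.0467), without replicate 3 of E7.2 (-0.60, adjusted p = 0.0353) and without the replicate 3 libraries of both clones (-0.61, adjusted p = 0.0411), all in edgeR. *Casp4*, singled out after its values were seen, was at -2.54 in E7.1 and -2.38 in E6.2 and not called (adjusted p = 0.0504 and 0.0776 in edgeR). In both clones it was called without the filter, by DESeq2's Wald test and by the likelihood ratio test. It was called in both too without replicate 1 or 3 of E7.2, and without the replicate 3 libraries of both E6.2 and E7.2. Some further fits called it in E7.1 alone, among them the fit of the 6 libraries alone. The median of the list was -0.14, -0.68, -0.16 and -0.30 in the 4 clones.

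Of the 16 tested RASSF and Hippo kinase genes, *Rassf4* was called. It was at 6.1, 4.69 and 11.7 CPM in E6.2 and 47.6, 20.3 and 24.7 CPM in parental cells, a log2 fold change of -2.04 (adjusted p = 0.0390 in edgeR). The call was kept only without replicate 2 of the parental line, replicate 3 of E6.2, replicate 1 or 2 of E7.1 or replicate 3 of E7.2, and lost in the other 10 fits without 1 library (-2.17 to -1.58, adjusted p between 0.0570 and 0.232) and in the fit of the 6 libraries alone (adjusted p = 0.186). In E6.1, at 7.04, 10.2 and 7.76 CPM, it was at -1.89 and not called (adjusted p = 0.121 in edgeR), but it was without the filter, by DESeq2's Wald test and by the likelihood ratio test (adjusted p = 0.00804, 0.00201 and 0.00461). The kinases *Stk3* and *Stk4*, partners of RASSF proteins, were not called, *Stk3* being lowest in E6.2 at -0.58 (adjusted p = 0.0750 in the edgeR test), where it was called by DESeq2's Wald test and the likelihood ratio test (adjusted p = 0.00460 and 0.0453) and without replicate 2 of E6.2 (-0.76, adjusted p = 0.0108). *Rassf8*, singled out after its values were seen, held 0 counts in all 3 libraries of E7.1 and 2, 24 and 16 counts in parental cells, and was not called (adjusted p = 0.0692 in the edgeR test). It was called without the filter, by the likelihood ratio test, without replicate 1 of the parental line, and without replicate 3 of E6.2, replicate 3 of E7.2 or both.

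Among the 21 tested p53 response genes, which share *Pmaip1* and *Bbc3* with the BH3-only list, *Pmaip1* in E7.1 was the only call, the same clone in which *Trp53inp1* was called. The estimate of *Pmaip1* was also below 0 in E6.2, as given above, without a call in the main edgeR test. *Cdkn1a*, which encodes the cell-cycle inhibitor p21, was at 4.57, 4.08 and 0.601 CPM in E6.2, its highest and lowest values in the series, and at 1.12, 1.55 and 1.78 CPM in parental cells. It was not called in E6.2 (1.05, adjusted p = 0.429 in edgeR), but was without the replicate 3 libraries of both E6.2 and E7.2 (1.54, adjusted p = 0.0313). *Mdm2*, the negative regulator of p53, was not called and had log2 fold changes between -0.05 and 0.17. *Trp53inp2*, the relative of *Trp53inp1*, was at 0.24 in E7.1 (adjusted p = 0.473 in edgeR). The medians of this list were -0.02, 0.17, -0.17 and 0.04 in the 4 clones. The 12 genes of the ELL and EAF list gave 0 calls, with *Ell* between 0.06 and 0.15, *Ell2* between -0.40 and -0.21 and *Eaf1* between -0.01 and 0.26. Without the replicate 3 libraries of both E6.2 and E7.2, *Ell2* was called in E6.2 (-0.60, adjusted p = 0.0246 in edgeR) and E7.1 (-0.35, adjusted p = 0.0491). In the list of FOXP and FOXO factors the only calls were those of *Foxp1* itself.

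**Figure D5:**
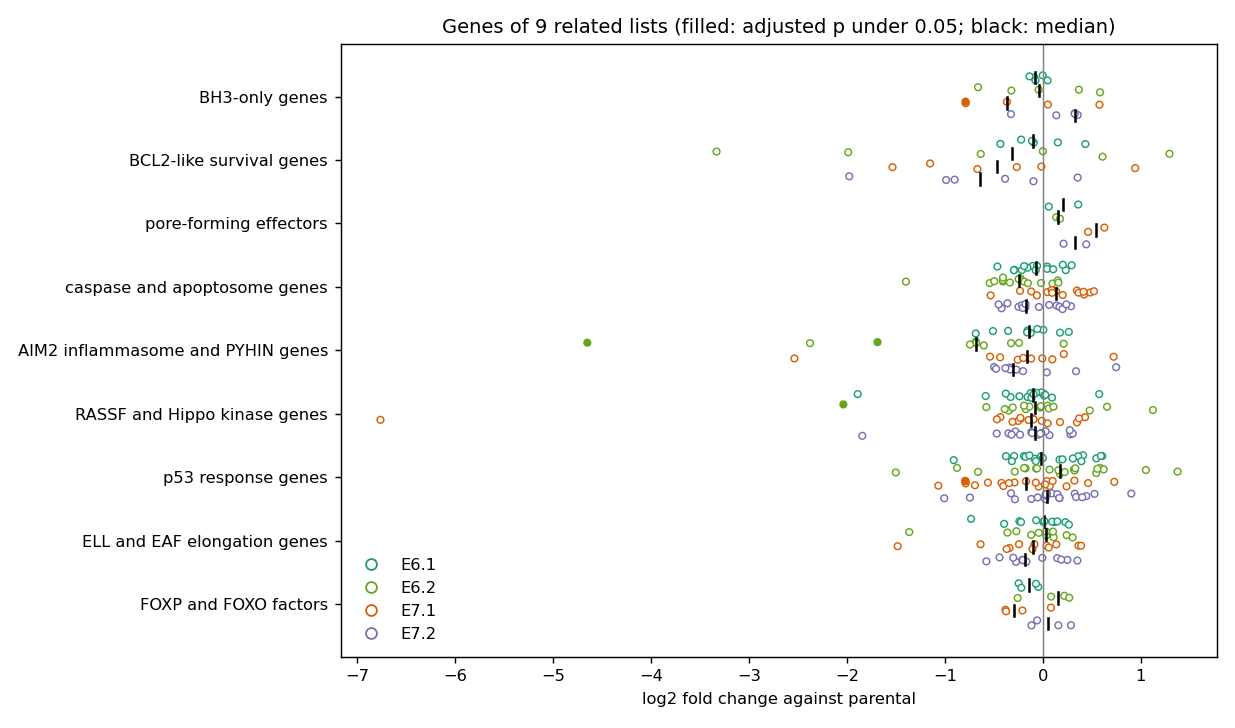
Log2 fold change against parental cells (horizontal axis) of the tested genes in 9 lists, without the members and *Foxp1*, with 1 point per gene and clone, filled where the adjusted p was under 0.05, and a black mark at the median. All filled points lie below 0, and the open point farthest to the left is *Rassf8* in E7.1, where all 3 libraries held 0 counts, so that its position has no fixed size.

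The genes whose pattern over the 15 libraries was most like each member were found by Pearson correlation of log2 CPM, a description over libraries that share lines. They were *Eml3*, *Lmntd1* and *Ehd4* for *Eaf2* (r of 0.91, 0.89 and 0.88), *Naa40*, *Dtnbp1* and *Gm5873* for *Rassf6* (0.94, 0.93 and 0.91), and *Rcl1*, *Eif4a1* and *Setdb1* for *Aim2* (0.86, 0.82 and 0.82). For *Trp53inp1* they were *Anxa5*, *Rmnd5a* and *Nfkbia* (0.92, 0.91 and 0.89), and for *Bmf* *Gm5835*, *Tnnt3* and *Pafah1b3* (0.97, 0.96 and 0.96). Among the members themselves, *Eaf2*, *Rassf6* and *Aim2* correlated with one another, with r of 0.74 for *Eaf2* and *Rassf6*, 0.69 for *Eaf2* and *Aim2* and 0.59 for *Rassf6* and *Aim2*, while *Trp53inp1* and *Bmf* had r of 0.53. That last pair stood at the percentiles 88.6 and 84.2 among all tested genes for the respective gene, and both genes had their highest value in replicate 3 of E7.2, a library that stood apart. The pairs across these sets had r between -0.48 and 0.0031.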

How the data were processed

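RNA from 5 A20 lines was sequenced in triplicate, and the samples were grouped by the line named in their labels. The authors deposited raw counts of read pairs per gene, made with HISAT, SAMtools and featureCounts 1.5.0 on a GRCm38 annotation. Pairs that overlapped several genes were left out and strand was not used, so that counts of overlapping genes are uncertain; the members share no exon bases with other genes and *Foxp1* shares 5.14% with *Gm20696*. The 92 spike-ins listed held 0 counts and were left out. No column of another sample was present (0 columns not used).

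The tests used edgeR 4.0.16 under R 4.3.3. After a filterByExpr filter and TMM scaling, glmQLFit and glmQLFTest were fitted to the 15 libraries together, with 1 coefficient per line. P values were adjusted over the 13904 tested genes within each comparison by the Benjamini-Hochberg method, and genes were called at an adjusted p under 0.05. The code of this fit was tested on simulated data, which do not show how often a real change here would go uncalled. Log2 CPM for correlations used a prior count of 2. Total depth was 26328054 to 39181530 counts.

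The members and gene lists were chosen with earlier results of these data known. The genes named were *Foxp1*, the members, every listed pathway gene called in a clone, 16 listed genes whatever their values, and for each member the 3 genes most correlated with it. *Casp4*, *Rassf8*, *Bid*, *Bcl2*, *Bcl2a1d* and *Bak1* were named in addition. *Xbp1*, *Prdm1*, *Irf4*, *Jchain* and *Sdc1* were named as markers. Alternatives were DESeq2 1.42.0's size factors, no filter, DESeq2's Wald test, edgeR's likelihood ratio test, a replicate block, the 6 libraries compared alone, a cutoff of 1 on the log2 fold change beside the adjusted p (for counts of members), and fits without each library or without both of the replicate 3 libraries that stood apart.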

Additional observations from a re-analysis of the deposited data

Results flagged for a closer look

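Effects that differed between clones, by the test of the difference itself, are listed here as log2 differences with adjusted p as edgeR gave it. Among the members this held for *Trp53inp1*, lower in E7.1 than in E6.2 (-0.72, adjusted p = 0.0391). *Foxp1* was lower in the E7 than in the E6 clones (-1.09, adjusted p = 0.000609), and in each pair, at -0.87 for E7.1 against E6.1, -1.27 for E7.2 against E6.1, -0.90 for E7.1 against E6.2 and -1.30 for E7.2 against E6.2. Of these, the first was lost in 7 of the 15 fits without 1 library (adjusted p up to 0.163), namely any library of E6.1 or E7.1 or replicate 2 of E7.2. The second was lost in 3 (replicate 3 of E6.1, replicate 1 or 2 of E7.2, adjusted p up to 0.0684) and the third in 1 (replicate 1 of E7.1, -0.71, adjusted p = 0.0589). Among the pathway genes called against parental cells, *Nlrc4* was lower in E6.2 than in E6.1 (-4.49, adjusted p = 3.82e-05) and higher in E7.1 (4.45) and E7.2 (4.38) than in E6.2, and differed by 2.17 between the E7 and the E6 clones. That last difference came from E6.2, with means of 5.89, 0.268, 5.73 and 5.45 CPM in the 4 clones. In the E7 against E6 comparison 12.1% of all tested genes were called. *Nlrc4*, *Ifi213* and *Rassf4* were named for calls in the same E6.2 libraries. *Ifi213* was 1.78 higher in E7.1 than in E6.2 and 1.49 higher in E7.2 than in E6.2, and differed by 0.97 between the E7 and the E6 clones. The second was lost without replicate 2 of E6.2 or replicate 1 or 2 of E7.2 (adjusted p up to 0.101), and the third without replicate 1 of E6.1 (0.90, adjusted p = 0.0561). *Rassf4* was 1.57 higher in E7.1 than in E6.2 and 1.80 higher in E7.2 than in E6.2, and differed by 1.61 between the E7 and the E6 clones. The first was lost in 4 of the 15 fits (replicate 1 or 2 of E6.2, replicate 2 or 3 of E7.1, 0.98 to 1.68, adjusted p up to 0.127). The second was kept only without replicate 1 of the parental line, replicate 3 of E6.2, replicate 1 or 2 of E7.1 or replicate 3 of E7.2, and lost in the other 10 (adjusted p up to 0.166). *Trp53inp1* was lost in 10 as given above. Groups of 3 libraries were too small for the test of single outlying samples.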

How the results depend on the processing

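The count of members called against parental cells stayed at 0 in E6.2 and E7.2 and at 1 in E7.1 under the other methods and filters, the replicate block, the fit of the 6 libraries alone and the added cutoff of 1 on the log2 fold change. DESeq2's Wald test called 1 member in E6.1. Without the replicate 3 libraries of both E6.2 and E7.2, 1 member was called in the mean of the 4 clones and 2 in the E7 against the E6 clones. Member calls between clones, 1 in the report, rose to 6 without the filter, 7 with DESeq2's Wald test, 6 with the likelihood ratio test, 2 with the replicate block and 6 without these libraries. Pathway calls, 4 in the report, were 13, 25, 20 and 31 without the filter, with DESeq2, with the likelihood ratio test and without these libraries, and 11 of the 31 were higher. The cause was not tested. The share of all tested genes called moved too. Over the 7 fits other than those without 1 library it was 0.288% to 1.11% in E6.1 (0.324% in the report), 0.340% to 2.86% in E6.2 (1.17%), 1.17% to 15.2% in E7.1 (1.22%), 0.138% to 1.83% in E7.2 (0.295%), 0.428% to 1.28% for the mean of the clones (0.503%) and 6.17% to 33.1% for E7 against E6 (12.1%). Between clones it was 8.77% to 34.9% for E7.1 against E6.2 (16.9%), 1.96% to 17% for E7.2 against E6.2 (2.24%), 2.41% to 17.8% for E7.1 against E6.1 (3.24%), 1.07% to 3.39% for E6.2 against E6.1 (1.24%), 0.288% to 1.70% for E7.2 against E6.1 (0.352%) and 0.585% to 2.06% for E7.2 against E7.1 (0.590%).

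With 1 library left out, member calls ranged from 0 to 1 in E7.1 and in the mean of the clones, from 0 to 2 between E7 and E6 and from 0 to 6 between clones, and pathway calls from 2 to 16. The share of all tested genes called then ranged from 0.209% to 7.05% in E7.1, 0.181% to 0.689% for the mean of the clones, 2.77% to 26.8% for E7 against E6 and 3.76% to 25.7% for E7.1 against E6.2, the lowest shares being those without replicate 2 of the parental line (the first 2), replicate 1 of E6.1 and replicate 1 of E7.1, and the highest, except for the mean of the clones, those without replicate 3 of E6.2. Pathway calls were 13 without replicate 1 of the parental line, 15 without replicate 3 of E6.2 and 16 without replicate 3 of E7.2. Of 1280 alternative values of single members, 54 changed sign, none with a call on either side. Member calls between clones were 6 without replicate 3 of E7.2, 4 without replicate 3 of E6.2 and 2 without replicate 1 of the parental line.

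The replicate numbers mark separate passages, and whether they pair the libraries across the lines was not settled. Deviations from the line mean correlated with r of 0.0531 on average over 30 pairs of same-numbered libraries, against -0.0249 over 60 others. The deviations of a line sum to 0, so the second value is bound to the first and these averages cannot decide the question. Of the 30 same-numbered pairs, 11 were over 0.1. Between E6.2 and E7.2 all 3 were over 0.1 (0.174, 0.276 and 0.426), the highest being that of the replicate 3 libraries, but replicate 2 of E6.2 correlated best with replicate 1 of E7.2 (0.311). With the block, no member was called between these clones, as without it, and the difference of *Rassf4* between them was not called (1.81, adjusted p = 0.0716). The replicate block changed no call of a member against parental cells, and ended that of *Rassf4* in E6.2 (adjusted p = 0.0655). Depth limits *Bik* and *Hrk*, and the spread between passages limits *Bmf* and *Eaf2*.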
